A study of Mus musculus with 12 samples.

Results

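Very long genes take RNA polymerase II hours to transcribe, and 51 mouse genes known to span more than about 200 kb were followed here through cisplatin treatment of fibroblasts. The genes were listed by name for their size, with earlier results of these data known, and the rule asked of their signals only a minimum level. Of the 51 listed genes, 45 had at least 1 probe set that the array annotation assigned to that gene alone (119 probe sets in all), out of 12393 genes on the array with such a probe set. Each of the 45 had an annotated span over 200 kb in the mouse assembly GRCm38.p6, with a lowest span of 217 kb for Nfib, a median of 559 kb and a highest of 2390.4 kb for Dmd. In 39 of them the mean signal of at least 1 group was over 100, and 17 of these passed that minimum through untreated groups alone. The 34 of them that also lay in the upper 60% of probe sets by mean log2 signal over all 12 arrays were tested, out of 7909 genes tested. Of these 34, 12 had passed the minimum through untreated groups alone (Cdkal1, Dock1, Fars2, Gphn, Macrod2, Pard3, Prkca, Prkce, Ptprd, Ptprg, Ptprk and Ptprm). A gene that passes only through the groups where it is high had to differ, so counts and medians over the tested genes are descriptions, and the main ones are also given for the other 22. The remaining genes are accounted for in the paragraphs on their roles. The genes nearest to the signal minimum were Vav3 and Sox5 below it, with highest group means of 86.0 and 82.8, and Diaph2 and Ebf1 above it, with 112 and 116.

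The RNA came from fibroblasts cultured from mouse embryos of day 13.5 (MEFs), which are primary cells of connective tissue, at passage 2. There were 4 groups of 3 Affymetrix arrays: Rb null cells (Rb-/-) exposed to 16 µM cisplatin for 24 h, untreated Rb null cells, wildtype cells exposed to the same dose for 24 h, and untreated wildtype cells. The design text speaks of 4 RNA samples that were each hybridized in triplicate, and if so the spread behind each p-value is that of hybridizing and not that of growing and treating cells. In RNA from whole cultures, fewer cells that express a gene and less of its RNA per cell cannot be told apart.

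Cisplatin crosslinks neighbouring purines in DNA, and RNA polymerase II stalls when it meets such an adduct on the transcribed strand. Stalled polymerase recruits the transcription-coupled repair proteins, which excise the damaged stretch. For a given density of adducts, a long transcription unit is hit more often than a short one, and this is the reason that gene length is of interest after cisplatin. Loss of the retinoblastoma protein, which holds back E2F transcription factors, takes away a restraint on S phase entry.

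The arrays carried some differences that touch the comparisons. Signal of Rb1 itself averaged 89.6 ± 14.4 on cisplatin Rb null and 94.0 ± 9.99 on untreated Rb null arrays, against 383 ± 60.1 on cisplatin wildtype and 459.7 ± 35.4 on untreated wildtype arrays (SD, n = 3 each), in the direction of the labels. Xist, made from the inactive X chromosome of female cells, read 3227 to 3761 on cisplatin Rb null, 2843 to 3494 on untreated Rb null and 2151 to 2506 on cisplatin wildtype arrays, against 115 to 163 on untreated wildtype arrays, where the Y-linked Eif2s3y read 470 to 485. In the wildtype comparison RNA with Xist is thus set against RNA with a Y-linked transcript, and treatment and culture cannot be told apart. Eif2s3y read at most 17.8 on the other 9 arrays. As a background for the marker counts, 20.3% of all genes tested were called lower and 16.6% higher after cisplatin in Rb null cells. In wildtype cells these shares were 12.7% and 14.8%. Of 15 tested macrophage and leukocyte markers, 11 were lower and 2 higher after cisplatin in Rb null cells (summed signal 6303 to 6567 after cisplatin, against 8014 to 8380 untreated), and 0 were lower and 6 higher in wildtype cells (12376 to 12940 after cisplatin, against 5999 to 6413 untreated). Of 11 fibroblast markers, 5 were lower and 0 higher in Rb null cells (summed signal 44268 to 44972 after cisplatin, against 64338 to 66818 untreated) and 4 were lower and 4 higher in wildtype cells (57305 to 59715 after cisplatin, against 64247 to 67388 untreated). Of 12 skeletal muscle markers, 2 of the 6 tested were lower and 2 higher in Rb null cells (summed signal 1046 to 1220 after cisplatin, against 2370 to 2464 untreated), and 2 were lower and 0 higher in wildtype cells (999 to 1264 after cisplatin, against 4021 to 4154 untreated). Of 12 neural markers, 2 of the 4 tested were lower and 2 higher in Rb null cells (925 to 1041 after cisplatin, against 967 to 1267 untreated), and 2 were lower and 0 higher in wildtype cells (903 to 960 after cisplatin, against 2410 to 2981 untreated). Among them the muscle actin Acta1 averaged 220 after cisplatin and 1717 untreated in Rb null cells, and 274 after cisplatin and 2785 untreated in wildtype cells. Fabp7 of neural progenitors averaged 45.4 after cisplatin and 178 untreated in Rb null cells, and 51.6 after cisplatin and 1464 untreated in wildtype cells. Acta1 thus made up most of the untreated muscle sums, and Fabp7 a large part of the neural sums of untreated wildtype cells. The markers called higher in Rb null cells were Tnnc1 (log2 1.03) and Tnnt2 (0.61) of muscle, and Tubb3 (1.52) and Gap43 (0.68) of the neural list. Of 7 epithelial markers 1 of the 2 tested, Krt18, was higher in both genotypes, averaging 209.9 after cisplatin and 40.5 untreated in Rb null cells, and 466 after cisplatin and 90.1 untreated in wildtype cells. Of 8 endothelial markers Kdr and Eng were tested and not called. At or below 63.8 in every group, the highest reading of 12 bacterial control probe sets, were 5 of 8 endothelial (Cdh5, Pecam1, Tek, Tie1, Vwf), 2 of 7 epithelial (Cdh1, Epcam), 3 of 12 muscle (Myh3, Myog, Tnnt1), 3 of 12 neural (Nefl, Nefm, Snap25) and 2 of 5 adipocyte markers (Adipoq, Pparg), and no marker had a group mean of 0. The 3' probe set of 18S ribosomal RNA read 282 to 462 after cisplatin and 102 to 122 untreated in Rb null cells, and 188 to 245 after cisplatin and 92.0 to 121 untreated in wildtype cells. The 3' to 5' signal ratio of Gapdh, a measure of RNA integrity, lay at 0.798 to 0.881 after cisplatin and 0.759 to 0.776 untreated in Rb null cells, and at 0.782 to 0.866 after cisplatin and 0.781 to 0.800 untreated in wildtype cells. The same ratio of Actb lay at 1.19 to 1.32 after cisplatin and 1.10 to 1.23 untreated in Rb null cells, and at 1.20 to 1.25 after cisplatin and 1.12 to 1.17 untreated in wildtype cells, where these did not overlap. The part of these shifts in the results on long genes was not tested.

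Most of the tested very long genes were lower after cisplatin in both genotypes, and none was called higher. A gene was called when the Benjamini-Hochberg adjusted p of limma's moderated test, over all probe sets tested, was under 0.05 and the change was at least 1.5-fold, with changes given as log2(signal + 10.4). In Rb null cells 28 of the 34 tested genes were lower after cisplatin and 0 higher, where 20.3% of all genes tested were called lower and 16.6% higher (36.9% in all). In wildtype cells 25 were lower and 0 higher, against 12.7% and 14.8% of all genes (27.5% in all). Of the 22 genes whose signal also passed the minimum in a cisplatin group of either genotype, 16 were lower in Rb null cells, 13 were lower in wildtype cells, and 0 were higher in either. Of these 22, Cdh13, Utrn, Nfib, Pde10a, Lrba and Fto did not pass it in cisplatin Rb null cells. Elmo1 did not pass it in cisplatin wildtype cells, so the minimum could still favour some of these falls. The 12 genes outside the 22 were lower in both genotypes, which the minimum favoured. The median log2 change of the 34 genes was -1.89 in Rb null and -1.56 in wildtype cells, beside -0.02 and 0.06 over all 7909 genes. Over the 22 genes it was -1.39 in Rb null and -0.72 in wildtype cells. Every one of the 3 cisplatin arrays lay outside the range of the 3 untreated arrays for 29 of the genes in Rb null cells, where 69.9% of all genes did so in either direction, and for 30 in wildtype cells, where 62.4% did. Of the 22 genes, 17 did so in Rb null and 18 in wildtype cells. The same 24 genes were lower in both genotypes, 4 were lower in Rb null cells alone by the call (Auts2, Foxp1, Tcf4, Tcf12), 1 in wildtype cells alone (Elmo1), and 5 in neither (Rora, Wwox, Dcc, Dab1, Rad51b). Changes in the Rb null and the wildtype cells, which share no array, ran together over the 34 genes (Pearson r = 0.857, Spearman rho = 0.855, across genes, which are not independent replicates). For 12 of these genes the minimum favoured a fall in both genotypes, which raises such a correlation. It was not computed for the other 22 or for all genes tested.

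**Figure D1:**
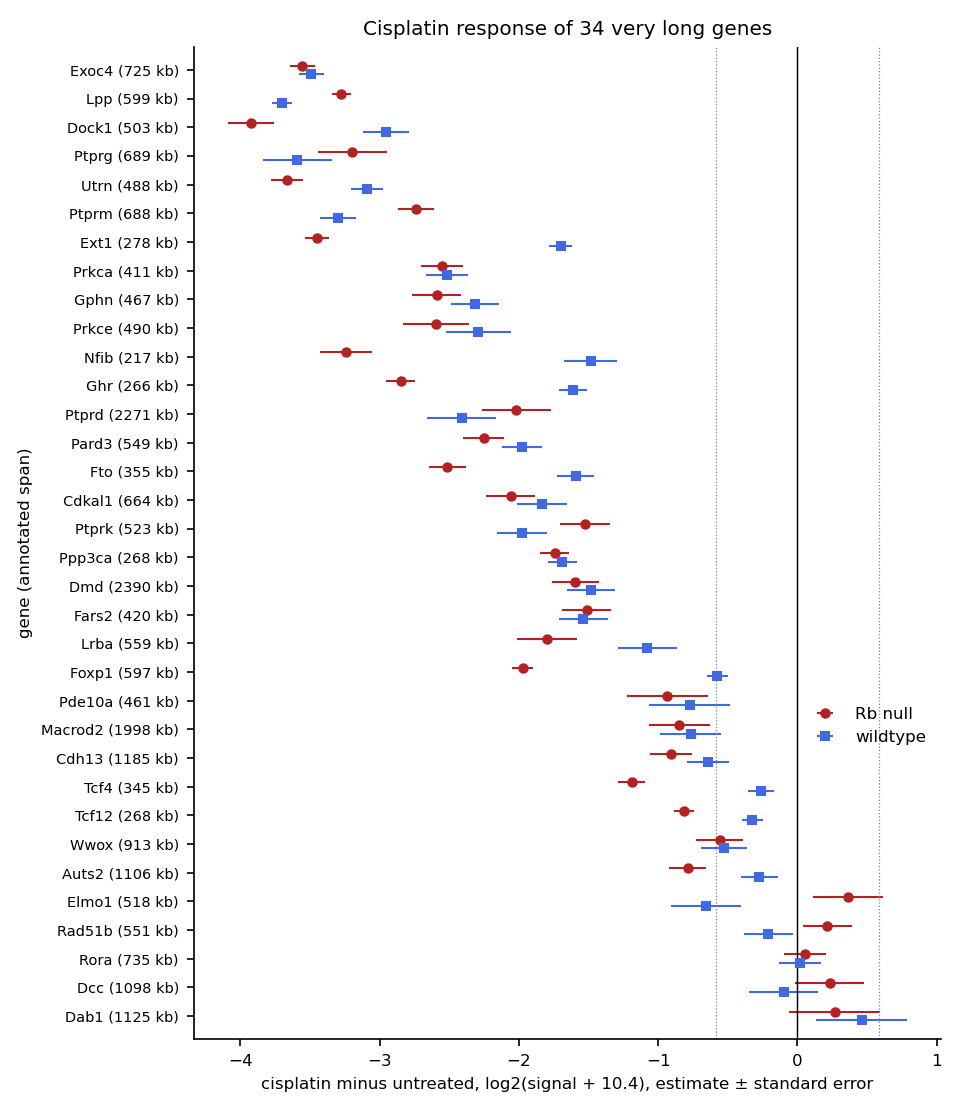
Cisplatin minus untreated on the log2(signal + 10.4) scale (horizontal axis, estimate ± standard error of limma, 3 arrays per group) for each of the 34 tested very long genes, with the annotated span beside each symbol. Circles are Rb null and squares wildtype cells, and dotted lines mark a 1.5-fold change. Exoc4 lies near the low end in both genotypes, while Dab1, Dcc, Rora and Rad51b lie near 0.

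After cisplatin some of these transcripts read no higher than the highest bacterial control reading, though most read above it. The mean signal of the 34 genes after cisplatin had a median of 98.4 in Rb null cells (27.5 to 886), against 349.5 in untreated Rb null cells (65.4 to 6075). In wildtype cells it was 126 after cisplatin (38.0 to 1319), against 367 untreated (134 to 6259). A group mean over 100 was left in 16 genes in cisplatin Rb null cells, against 32 in untreated Rb null cells, and in 21 in cisplatin wildtype cells, against 34 in untreated wildtype cells. At or under 63.8, the highest bacterial control reading, were 7 genes in cisplatin Rb null cells and 5 in cisplatin wildtype cells, and 0 in either untreated group, so that the fold changes of those genes may be understated. That reading came from the untreated Rb null arrays. After cisplatin the control readings had a median of 6.1 and a highest of 52.6 in Rb null cells. In wildtype cells these were 6.8 and 52.1.

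Genes for proteins of the cytoskeleton, of scaffolds and of cell polarity included Dock1 and Lpp, which had the deepest falls of the 34 genes in Rb null and in wildtype cells by the probe set with the highest mean of each gene. In Rb null cells a weaker probe set of Ppp3ca (log2 -4.23) and one of Ptprk (-4.03) fell further than Dock1. Of 8 tested genes, 6 were lower in Rb null and 7 in wildtype cells, with medians of -2.42 in Rb null and -2.15 in wildtype cells. Over all genes tested 20.3% were lower in Rb null and 12.7% in wildtype cells, a background also for the roles below. Among the genes counted here Dock1, Pard3 and Gphn passed the signal minimum through untreated groups alone, which favoured their falls. Dock1, an exchange factor that activates Rac in migrating and engulfing cells, had signals of 53.8, 63.3 and 54.5 on cisplatin Rb null arrays and 1023, 1044 and 981 on untreated Rb null arrays. In wildtype cells Dock1 read 104, 54.3 and 70.6 after cisplatin and 582, 709.9 and 643 untreated. The treated and untreated arrays were far apart in both genotypes, with log2 changes of -3.93 ± 0.17 (adjusted p = 6.65e-11) in Rb null and -2.95 ± 0.17 (adjusted p = 1.9e-09) in wildtype cells. Lpp, a LIM-domain protein of focal adhesions and the most strongly detected of the listed genes, read 642, 601 and 609.9 after cisplatin in Rb null cells, against 5898, 6240.3 and 6087 untreated. It read 476, 438 and 500.5 after cisplatin in wildtype cells, against 6749, 6063 and 5964 untreated. Its log2 change was -3.28 ± 0.069 (adjusted p = 1.24e-13) in Rb null and -3.70 ± 0.069 (adjusted p = 7.85e-14) in wildtype cells, with no overlap of arrays in either. Utrn encodes utrophin, which ties the actin cytoskeleton to the cell membrane. It read 95.9, 95.6 and 81.7 after cisplatin and 1224, 1298 and 1299 untreated in Rb null cells. In wildtype cells it read 154, 106 and 129.7 after cisplatin and 1116, 1231 and 1183 untreated. Again no arrays overlapped, and the log2 changes were -3.66 ± 0.12 (adjusted p = 4.62e-12) in Rb null and -3.09 ± 0.12 (adjusted p = 3.12e-11) in wildtype cells. The other tested probe set of Utrn fell less, with changes of -1.785 in Rb null and -1.23 in wildtype cells. Its relative Dmd, which encodes dystrophin and has the longest span of the list, fell by log2 1.59 in Rb null and 1.48 in wildtype cells. Pard3, a polarity protein of cell junctions, and Gphn, which encodes the receptor-anchoring protein gephyrin, were lower in both genotypes, by log2 2.25 and 2.59 in Rb null and 1.98 and 2.32 in wildtype cells. Dab1, the adaptor of reelin signalling, changed by log2 0.27 ± 0.33 (adjusted p = 0.49) in Rb null and 0.46 ± 0.33 (adjusted p = 0.249) in wildtype cells and was not called. Elmo1, which binds Dock1 to form the active exchange complex, had low signals in all groups and is described with the differences between genotypes. The junction scaffold Magi1 and the formin Diaph2 were too weak on average to be tested and passed the signal minimum through untreated groups alone, so that their lower treated signals are a description. Magi1 averaged 14.4 ± 4.77 after cisplatin and 137 ± 23.7 untreated in Rb null cells, and 24.7 ± 9.99 after cisplatin and 174 ± 23.7 untreated in wildtype cells (SD, n = 3 each). Diaph2 averaged 9.87 ± 6.73 after cisplatin and 97.2 ± 12.8 untreated in Rb null cells, and 7.23 ± 4.8 after cisplatin and 112 ± 12.5 untreated in wildtype cells. Vav3, another exchange factor, did not reach the signal minimum, and Magi2 and Akap13 were not analysed here.

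**Figure D2:**
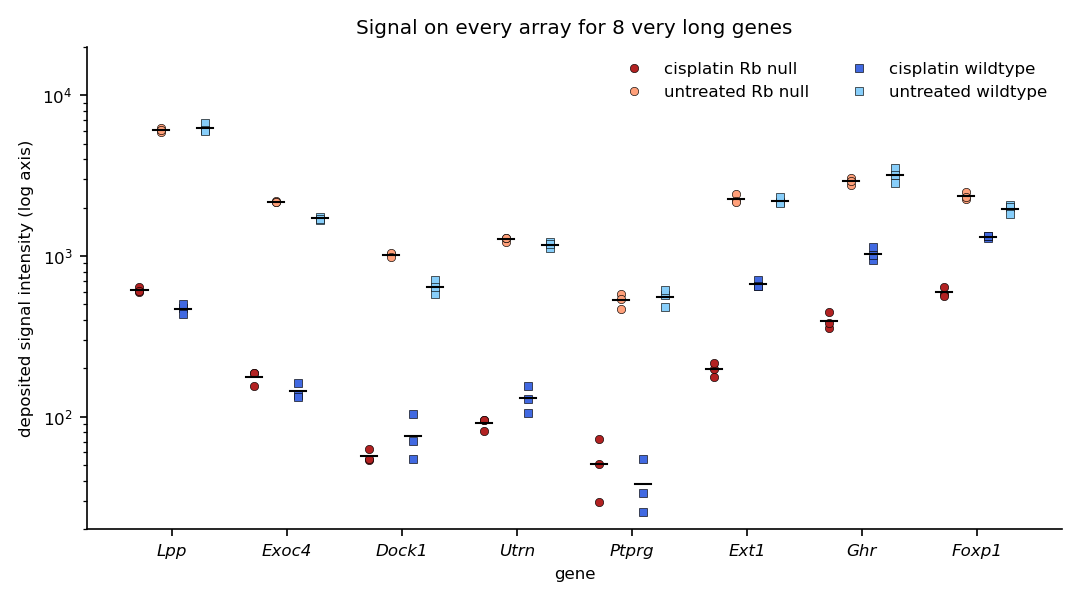
Deposited signal intensity (vertical log axis) on each of the 12 arrays for 8 very long genes, with circles for Rb null and squares for wildtype cells, cisplatin left of untreated in each genotype, and a bar at the mean of the 3 arrays. In each genotype the cisplatin arrays lie below the untreated arrays for all 8 genes, and for Ext1, Ghr and Foxp1 the cisplatin Rb null arrays lie below the cisplatin wildtype arrays.

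Both tested genes of vesicle trafficking were lower in both genotypes. Exoc4 encodes a subunit of the exocyst, the complex that tethers secretory vesicles to the plasma membrane. Its signal was 156, 187 and 187 on cisplatin Rb null arrays, against 2195, 2183 and 2163 on untreated ones. On wildtype arrays it was 136, 162 and 133 after cisplatin and 1684, 1752 and 1709 untreated. The treated arrays lay far below the untreated ones in each genotype, with log2 changes of -3.55 ± 0.092 (adjusted p = 6.12e-13) in Rb null and -3.49 ± 0.092 (adjusted p = 1.1e-12) in wildtype cells. Lrba, a regulator of endosomal trafficking, fell by log2 1.80 in Rb null and 1.08 in wildtype cells. Tbc1d5 was not analysed here.

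The promoters of Exoc4, Lpp and Dock1 are printed because these genes had some of the deepest falls in both genotypes. Shown are 300 bases around the start site farthest from the gene end in the RefSeq promoter table (GRCm38.p6), 250 before and 50 after the start, on the plus strand: Exoc4 at chr6:33248878-33249177, Lpp at chr16:24393100-24393399 and Dock1 at chr7:134670437-134670736. Capitals mark the GC box GGGCGG, the TATA motif TATAAA and the CCAAT box CCAAT on either strand, none of which overlaps another kind.
Exoc4: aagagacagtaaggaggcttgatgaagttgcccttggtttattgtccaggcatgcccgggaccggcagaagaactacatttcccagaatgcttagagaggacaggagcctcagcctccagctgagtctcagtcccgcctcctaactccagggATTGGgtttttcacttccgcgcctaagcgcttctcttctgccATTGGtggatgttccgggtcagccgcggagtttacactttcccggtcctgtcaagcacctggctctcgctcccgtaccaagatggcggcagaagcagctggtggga
Lpp: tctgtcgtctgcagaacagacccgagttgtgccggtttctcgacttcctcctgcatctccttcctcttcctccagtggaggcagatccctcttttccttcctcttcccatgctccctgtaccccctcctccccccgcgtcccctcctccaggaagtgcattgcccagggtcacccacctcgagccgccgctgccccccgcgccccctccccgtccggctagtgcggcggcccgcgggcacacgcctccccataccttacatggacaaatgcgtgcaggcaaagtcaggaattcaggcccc
Dock1: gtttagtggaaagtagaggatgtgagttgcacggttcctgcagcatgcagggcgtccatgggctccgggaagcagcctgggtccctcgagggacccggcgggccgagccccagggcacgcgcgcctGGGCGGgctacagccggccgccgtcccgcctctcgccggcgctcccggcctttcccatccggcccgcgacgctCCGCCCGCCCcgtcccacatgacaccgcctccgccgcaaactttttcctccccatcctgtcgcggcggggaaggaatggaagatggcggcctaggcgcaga
The Dock1 window held 3 GC boxes, the Exoc4 window 2 CCAAT boxes, and the Lpp window none of these motifs. Promoters of 40 listed genes were in the table, with 67 start sites, and 49.3% of these windows held GGGCGG, against 35.7% of all 32851 windows. TATAAA was in 10.4% of the windows of listed genes, against 13.6% of all, and CCAAT in 41.8%, against 37.4%. A match is a description of the letters, and a window with no match says only that these letters are not in it.

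Of 7 tested receptors and adhesion proteins, 6 were lower in each genotype, with medians of -2.02 in Rb null and -1.98 in wildtype cells. Among them were 4 receptor-type tyrosine phosphatases, which remove phosphate from cell-contact and growth factor signalling proteins. All 4 (Ptprd, Ptprg, Ptprk and Ptprm) passed the signal minimum through untreated groups alone, which favoured their falls. Ptprg read 29.6, 72.6 and 50.5 on cisplatin Rb null arrays and 466, 578 and 544 on untreated ones. In wildtype cells it read 33.7, 25.6 and 54.7 after cisplatin and 575, 615 and 485 untreated. The log2 changes were -3.20 ± 0.25 (adjusted p = 4.12e-08) in Rb null and -3.59 ± 0.25 (adjusted p = 1.76e-08) in wildtype cells, and the treated signals lay in the range of control probe sets on most arrays. Ptprm read 70.2, 78.2 and 56.1 after cisplatin and 562, 475 and 496 untreated in Rb null cells. It read 68.0, 59.3 and 56.9 after cisplatin and 740.4, 666 and 676 untreated in wildtype cells. Its arrays did not overlap in either genotype, and its log2 change was -2.74 ± 0.13 (adjusted p = 2.2e-10) in Rb null and -3.30 ± 0.13 (adjusted p = 5.1e-11) in wildtype cells. Ptprd, which spans 2270.5 kb, read 35.5, 56.5 and 73.8 after cisplatin and 235, 243 and 266 untreated in Rb null cells. In wildtype cells Ptprd read 81.1, 77.0 and 37.8 after cisplatin and 417, 375 and 342 untreated. No arrays overlapped, the log2 changes were -2.02 ± 0.25 (adjusted p = 4.88e-06) in Rb null and -2.41 ± 0.25 (adjusted p = 1.17e-06) in wildtype cells, and Ptprk fell by log2 1.53 in Rb null and 1.98 in wildtype cells. Its other probe set changed by -4.03 in Rb null and -3.55 in wildtype cells. Ghr, the growth hormone receptor, read 451, 358 and 382 after cisplatin and 2755, 3075 and 2918 untreated in Rb null cells. It read 944, 1018 and 1147 after cisplatin and 3532, 3190.0 and 2844 untreated in wildtype cells. Both falls were clear of the array spread, at log2 -2.85 ± 0.10 (adjusted p = 1.29e-11) in Rb null and -1.61 ± 0.10 (adjusted p = 7.32e-09) in wildtype cells. Cdh13, a cadherin held to the membrane by a lipid anchor, changed by log2 -0.91 ± 0.15 (adjusted p = 9.53e-05) in Rb null and -0.64 ± 0.15 (adjusted p = 0.00219) in wildtype cells, while Dcc, the netrin receptor of growing axons, changed by 0.23 ± 0.25 (adjusted p = 0.431) in Rb null and -0.10 ± 0.25 (adjusted p = 0.761) in wildtype cells and was not called. Fndc3b was not analysed here.

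All 4 kinases, phosphatases and cyclic nucleotide enzymes were lower in both genotypes, with medians of -2.15 in Rb null and -1.99 in wildtype cells. Prkca and Prkce passed the signal minimum through untreated groups alone, which favoured their falls, and Pde10a passed it through wildtype groups alone. Prkca, a calcium-dependent protein kinase C, read 83.1, 85.2 and 110.4 after cisplatin and 628, 576 and 571 untreated in Rb null cells. In wildtype cells it read 99.1, 86.1 and 68.6 after cisplatin and 443, 552 and 602 untreated. Its treated and untreated arrays were well apart in both, with log2 changes of -2.55 ± 0.15 (adjusted p = 2.29e-09) in Rb null and -2.52 ± 0.15 (adjusted p = 4.17e-09) in wildtype cells. The calcium-independent isoform Prkce fell by log2 2.60 in Rb null and 2.29 in wildtype cells. Ppp3ca, the catalytic subunit of the calcium-activated phosphatase calcineurin, fell by log2 1.74 in Rb null and 1.69 in wildtype cells. Pde10a, which breaks down cyclic AMP and cyclic GMP, differed between the genotypes before treatment and had mean signals of 27.5 ± 7.69 after cisplatin and 65.4 ± 32.2 untreated in Rb null cells, and 198 ± 64.6 after cisplatin and 338 ± 57.1 untreated in wildtype cells (SD, n = 3 each). Its log2 changes were -0.93 ± 0.29 (adjusted p = 0.0113) in Rb null and -0.77 ± 0.29 (adjusted p = 0.0356) in wildtype cells.

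Transcription and chromatin factors had the lowest share of falls in wildtype cells among the groups of genes described here. Of 6 tested genes, 5 were lower in Rb null cells and 1 in wildtype cells, with medians of -1.0 in Rb null and -0.30 in wildtype cells. Nfib, a nuclear factor I protein, was the one called in both. Its signal was 33.7, 49.1 and 47.8 on cisplatin Rb null and 438, 554 and 499.5 on untreated Rb null arrays. On wildtype arrays Nfib read 97.6, 134 and 136 after cisplatin and 269.6, 429 and 395 untreated. The groups did not overlap in either genotype, and the changes were log2 -3.24 ± 0.19 (adjusted p = 1.89e-09) in Rb null and -1.48 ± 0.19 (adjusted p = 1.14e-05) in wildtype cells. Foxp1, a forkhead repressor, read 580.2, 643 and 565 after cisplatin in Rb null cells, against 2255, 2507 and 2343 untreated. It read 1291, 1341 and 1325 after cisplatin in wildtype cells, against 2081, 2021 and 1817 untreated. The arrays did not overlap in either genotype, but the wildtype change, -0.58 ± 0.074 (adjusted p = 1.3e-05), was just under 1.5-fold, beside -1.97 ± 0.074 (adjusted p = 2.05e-11) in Rb null cells. The E-proteins Tcf4 and Tcf12, partners of tissue-specific basic helix-loop-helix factors, changed by log2 -1.19 ± 0.094 (adjusted p = 4.97e-08) and -0.81 ± 0.074 (adjusted p = 2.13e-07) in Rb null cells. In wildtype cells they changed by -0.26 ± 0.094 (adjusted p = 0.0291) and -0.32 ± 0.074 (adjusted p = 0.00183), below the 1.5-fold minimum. Auts2, a partner of Polycomb complexes, changed by -0.79 ± 0.13 (adjusted p = 0.000124) in Rb null and -0.27 ± 0.13 (adjusted p = 0.0988) in wildtype cells, and the nuclear receptor Rora by 0.05 ± 0.15 (adjusted p = 0.769) in Rb null and 0.02 ± 0.15 (adjusted p = 0.937) in wildtype cells. Zbtb20, Ebf1 and Mllt3 were too weak on average to be tested and passed the minimum in the same way. The zinc-finger repressor Zbtb20 averaged 14.7 ± 10.1 after cisplatin and 256 ± 57.1 untreated in Rb null cells, and 59.5 ± 6.86 after cisplatin and 307 ± 50.8 untreated in wildtype cells. Ebf1, a factor of B cell and adipocyte precursors, averaged 9.77 ± 6.22 after cisplatin and 116 ± 31.2 untreated in Rb null cells, and 55.3 ± 7.84 after cisplatin and 87.2 ± 17.3 untreated in wildtype cells. Mllt3, a subunit of the super elongation complex, averaged 38.7 ± 9.51 after cisplatin and 204 ± 12.6 untreated in Rb null cells, and 65.0 ± 7.64 after cisplatin and 157 ± 12.4 untreated in wildtype cells (SD, n = 3 each). Nfia, Sox5, Sox6 and Npas3 did not reach the signal minimum in any group, and Smyd3 was not analysed here.

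Of 7 tested enzymes of repair, RNA modification, mitochondria and common fragile sites, 5 were lower in both genotypes, with medians of -1.51 in Rb null and -1.54 in wildtype cells. Of these 5, Cdkal1, Fars2 and Macrod2 passed the signal minimum through untreated groups alone, which favoured their falls. Ext1, a glycosyltransferase that extends heparan sulphate chains, read 199, 178 and 217 on cisplatin Rb null arrays and 2425, 2198 and 2166 on untreated ones. In wildtype cells Ext1 read 653, 710.2 and 653 after cisplatin and 2155, 2132 and 2332 untreated. Rb null minus wildtype was -1.71 ± 0.084 (adjusted p = 2.09e-09) after cisplatin and 0.04 ± 0.084 (adjusted p = 0.788) untreated, and the log2 changes with cisplatin were -3.45 ± 0.084 (adjusted p = 3.93e-13) in Rb null and -1.70 ± 0.084 (adjusted p = 5.19e-10) in wildtype cells. Fto, which removes methyl groups from RNA, averaged 99.7 ± 5.94 after cisplatin and 621 ± 62.0 untreated in Rb null cells, and 203 ± 30.5 after cisplatin and 633 ± 98.0 untreated in wildtype cells (SD, n = 3 each), a change of log2 -2.52 ± 0.13 (adjusted p = 6.53e-10) in Rb null and -1.59 ± 0.13 (adjusted p = 1.42e-07) in wildtype cells. Cdkal1, which modifies transfer RNA, and Fars2, the mitochondrial phenylalanyl-tRNA synthetase, fell by log2 2.06 and 1.51 in Rb null cells and 1.84 and 1.54 in wildtype cells. Macrod2, an ADP-ribose hydrolase, changed by log2 -0.85 ± 0.22 (adjusted p = 0.00365) in Rb null and -0.77 ± 0.22 (adjusted p = 0.00878) in wildtype cells. The oxidoreductase Wwox, known from a common fragile site in human cells, changed by -0.56 ± 0.17 (adjusted p = 0.00902) in Rb null and -0.53 ± 0.17 (adjusted p = 0.0156) in wildtype cells, which passed the adjusted p but not the 1.5-fold minimum. Rad51b, which acts in homologous recombination, changed by 0.21 ± 0.18 (adjusted p = 0.301) in Rb null and -0.21 ± 0.18 (adjusted p = 0.338) in wildtype cells and was not called. Fhit, another fragile-site gene, did not reach the signal minimum, and Immp2l was not analysed here.

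The 5 genes called in neither genotype were weakly detected before treatment. Their untreated means lay between 115 and 238 in Rb null cells and between 134.5 and 227 in wildtype cells. The 24 genes lower in both had median untreated means of 478 in Rb null and 382 in wildtype cells, with a range of 65.4 to 6075 in Rb null cells. The part of signal level in the missing calls was not tested.

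Responses differed between the genotypes for 8 of the 34 genes (23.5%), a share near that of all genes tested, so the count is not a result about the listed genes. The contrast was the Rb null change minus the wildtype change, and 7 genes were lower and 1 higher by it, where 15.0% of all genes tested were called lower and 8.70% higher (23.7% in all). Of the 211 other genes over 200 kb, 38.9% were called lower and 3.32% higher by this contrast. The 7 lower genes of the list had negative changes in both genotypes, larger in Rb null cells. The difference was log2 -1.76 ± 0.27 (adjusted p = 0.000158) for Nfib, -1.75 ± 0.12 (adjusted p = 1.02e-07) for Ext1 and -1.40 ± 0.11 (adjusted p = 2.45e-07) for Foxp1. It was -1.24 ± 0.14 (adjusted p = 1.53e-05) for Ghr, -0.97 ± 0.23 (adjusted p = 0.00474) for Dock1, -0.93 ± 0.13 (adjusted p = 9.28e-05) for Tcf4 and -0.92 ± 0.19 (adjusted p = 0.00152) for Fto. For Nfib, Ghr and Tcf4 the difference depended on the probe set, as given with the probe sets. Ppp3ca and Tcf12, which are not among the 8, were called lower by other probe sets than the one used here. Elmo1 read 142, 160.4 and 78.2 after cisplatin and 96.7, 89.2 and 91.2 untreated in Rb null cells, and 77.7, 129 and 66.3 after cisplatin and 153, 131 and 149.5 untreated in wildtype cells. Its arrays overlapped in Rb null cells, where the change was 0.36 ± 0.25 (adjusted p = 0.225), and not in wildtype cells, where it was -0.66 ± 0.25 (adjusted p = 0.0393). The difference was 1.02 ± 0.36 (adjusted p = 0.0364), and it was no longer called when any of 8 of the 12 arrays was left out or with no filter on low signals. The median difference over the 34 genes was -0.18, beside -0.08 over all genes, and it was -0.06 ± 0.13 (adjusted p = 0.732) for Exoc4 and -0.04 ± 0.21 (adjusted p = 0.912) for Prkca. The contrast contains the untreated wildtype arrays with their Y-linked transcripts. Between Rb null and wildtype cells after cisplatin, a comparison without those arrays, 7 of the 34 genes were lower in Rb null cells and 0 higher, against 13.3% and 9.71% of all genes (23.0% in all). They were Ext1, Ghr, Nfib, Foxp1, Tcf4, Fto and Pde10a, with log2 differences of -1.71 ± 0.084 (adjusted p = 2.09e-09), -1.36 ± 0.10 (adjusted p = 1.13e-07), -1.30 ± 0.19 (adjusted p = 5.65e-05), -1.13 ± 0.074 (adjusted p = 2.8e-08), -1.15 ± 0.094 (adjusted p = 2.43e-07), -0.95 ± 0.13 (adjusted p = 4.09e-05) and -2.43 ± 0.29 (adjusted p = 9.41e-06). Without treatment 1 gene was lower in Rb null than in wildtype cells (Pde10a, -2.27 ± 0.29 (adjusted p = 2.8e-05)) and 2 were higher (Auts2, 0.71 ± 0.13 (adjusted p = 0.000825), and Dock1, 0.65 ± 0.17 (adjusted p = 0.00715)), against 5.04% and 8.09% of all genes (13.1% in all). The untreated comparison sets RNA with Xist against RNA with a Y-linked transcript, so genotype and culture cannot be told apart in it.

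**Figure D3:**
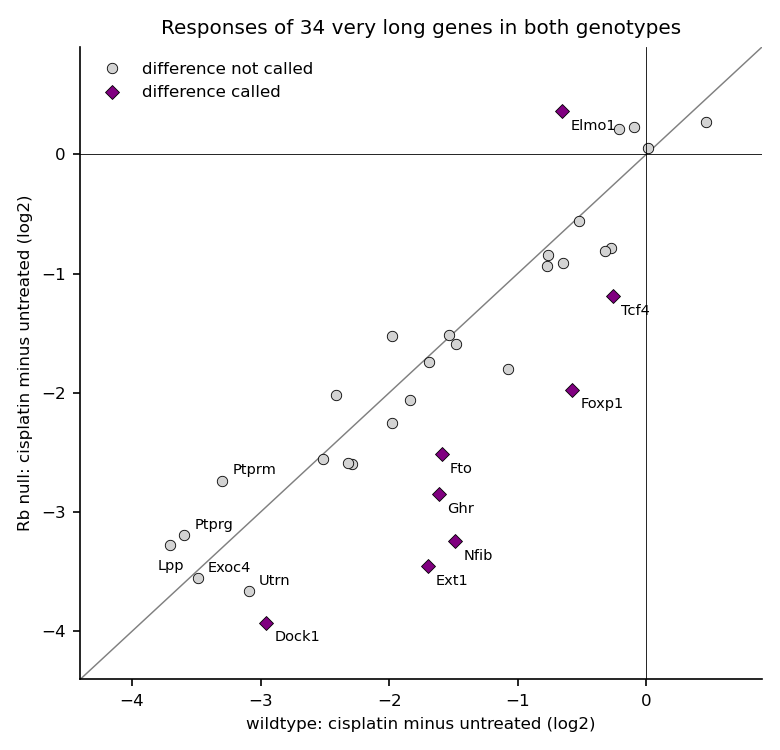
Cisplatin minus untreated in Rb null cells (vertical) against the same in wildtype cells (horizontal), both on the log2(signal + 10.4) scale, for the 34 tested very long genes, with the line of equal change. Diamonds mark the 8 genes whose difference between genotypes was called: Elmo1 lies above the line and Nfib, Ext1, Foxp1, Ghr, Dock1, Tcf4 and Fto below it.

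Across all genes tested the fall grew with gene span. Genes under 10 kb (2067) had a median log2 change of 0.19 in Rb null and 0.16 in wildtype cells, and genes of 10 to 30 kb (2788) had 0.12 in Rb null and 0.14 in wildtype cells. At 30 to 100 kb (2253 genes) the medians were -0.22 in Rb null and -0.03 in wildtype cells, and at 100 to 200 kb (548 genes) -0.86 in Rb null and -0.44 in wildtype cells. Over 200 kb (245 genes) they were -1.57 in Rb null and -1.05 in wildtype cells. The share called lower in Rb null cells was 8.51%, 10.6%, 26.2%, 64.1% and 79.2% in these classes in the order of span, and in wildtype cells 5.76%, 6.74%, 13.6%, 39.8% and 70.6%. Log10 span and log2 change had a Pearson r of -0.430 (Spearman rho -0.407) in Rb null and -0.333 (rho -0.314) in wildtype cells over 7901 genes, which share the arrays and are not independent. Above 200 kb, with classes divided at 300 and 500 kb after the data had been seen, the median no longer moved much with span in Rb null cells, at -1.55, -1.58 and -1.63, while in wildtype cells it was -0.97, -1.31 and -1.48. The share of genes called lower by the contrast of Rb null minus wildtype change was 44.9% at 200 to 300 kb (136 genes), 30.9% at 300 to 500 kb (68 genes) and 17.1% over 500 kb (41 genes). Over all genes tested it was 15.0%. The median log2 signal also dropped over these classes, at 8.02, 7.79 and 7.49, and its part in the shares was not tested.

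**Figure D4:**
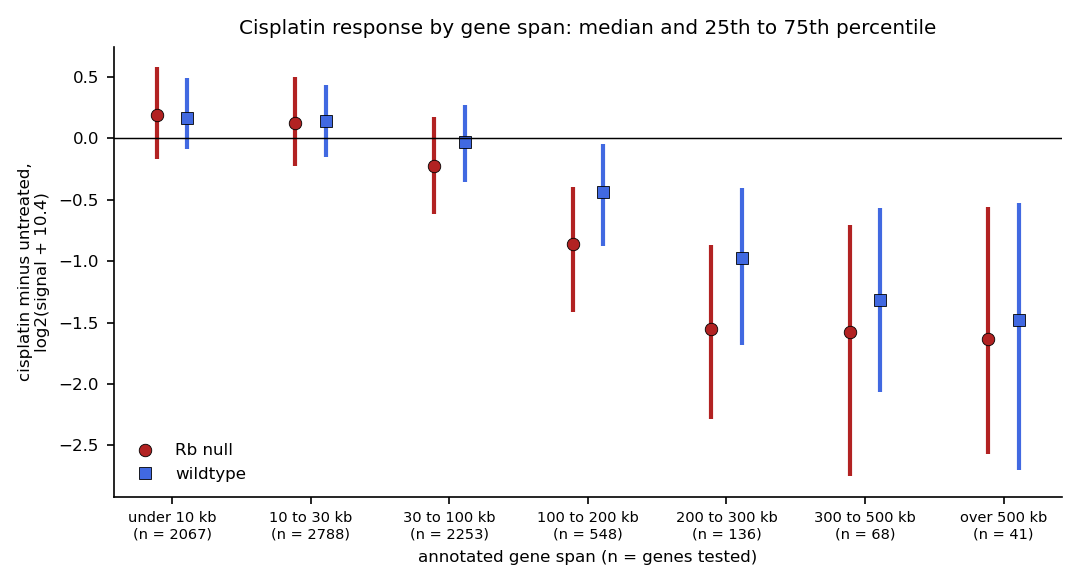
Median (symbol) and range of the middle 50% (bar, 25th to 75th percentile) of the change of genes after cisplatin on the log2(signal + 10.4) scale (vertical axis) by class of annotated gene span (horizontal axis, with the number of genes tested). Circles are Rb null and squares wildtype cells; medians are 0.19 and 0.16 under 10 kb and -1.63 and -1.48 over 500 kb.

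The listed genes and other genes of their size were also lower when set against genes of like signal. To do so, the median change of the tested genes outside the list in the same of 20 bins of mean log2 signal was subtracted. After this the median change of the 34 listed genes was -1.85 in Rb null and -1.59 in wildtype cells (-1.32 in Rb null and -0.70 in wildtype cells over the 22 that passed the minimum in a cisplatin group), and -1.85 and -1.61 with bins of the untreated level of the same genotype. Of the 34 genes, 29 in Rb null and 32 in wildtype cells lay below the median of their bin. The 211 other genes over 200 kb had medians of -1.49 in Rb null and -1.04 in wildtype cells on the same footing, with 166 lower and 6 higher in Rb null cells, 148 lower and 4 higher in wildtype cells, and 138 lower in both. Within the list the longest genes were not the ones that fell furthest, with an r between log10 span and change of 0.344 in Rb null and 0.118 in wildtype cells over 34 genes. The 10 tested genes over 700 kb had median changes of -0.82 in Rb null and -0.59 in wildtype cells, with 6 and 5 lower calls. The 5 genes of 200 to 300 kb had medians of -2.85 in Rb null and -1.61 in wildtype cells, with 5 and 4 lower calls. The 10 longest were also weaker, with a median of the higher untreated mean of 223, against 1567 for the 5 shortest.

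**Figure D5:**
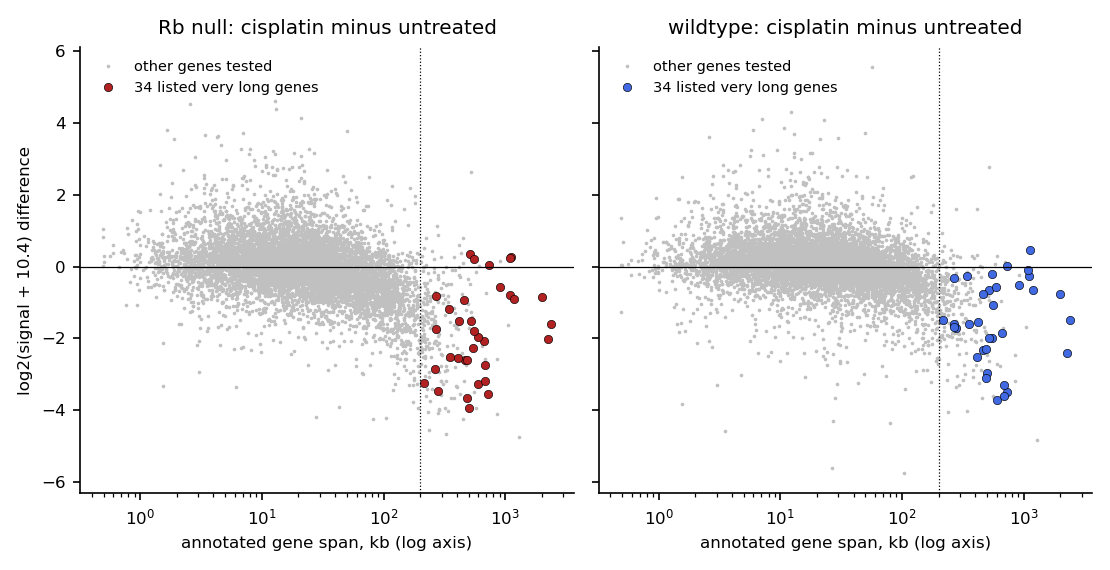
Change after cisplatin on the log2(signal + 10.4) scale (vertical axis) against annotated gene span in kb (horizontal log axis) for every gene tested with a span, in Rb null (left) and wildtype cells (right). Grey points are other genes, coloured points the 34 listed very long genes, and the dotted line marks 200 kb; most genes right of it lie below 0 in both genotypes.

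Among the other genes over 200 kb, some fell further than any listed gene and a few rose. Tenm3, a teneurin of 1297 kb that acts in neuronal wiring, read 15.1, 22.6 and 5.0 after cisplatin and 642, 566 and 657 untreated in Rb null cells. In wildtype cells it read 13.2, 11.2 and 13.1 after cisplatin and 659, 675 and 599.7 untreated. Its arrays were far apart in both, with changes of -4.75 ± 0.22 (adjusted p = 2.06e-10) in Rb null and -4.84 ± 0.22 (adjusted p = 2.57e-10) in wildtype cells. The axon repellent Slit2 fell by log2 4.66 in Rb null and 2.75 in wildtype cells, the metalloprotease Adam12 by 4.02 in Rb null and 4.02 in wildtype cells, and the fucosyltransferase Fut8 by 4.56 in Rb null and 2.72 in wildtype cells. In the opposite direction, Pde4b, a phosphodiesterase of cyclic AMP annotated over 519.9 kb, read 1062, 926 and 896 after cisplatin and 179, 127 and 139 untreated in Rb null cells. In wildtype cells Pde4b read 926, 924 and 966 after cisplatin and 115, 118 and 159 untreated. The treated arrays were all above the untreated ones, with changes of 2.62 ± 0.14 (adjusted p = 5.24e-10) in Rb null and 2.76 ± 0.14 (adjusted p = 4.95e-10) in wildtype cells. Celf4, an RNA-binding protein, also rose in both, by log2 1.14 ± 0.17 (adjusted p = 3.22e-05) in Rb null and 1.59 ± 0.17 (adjusted p = 1.68e-06) in wildtype cells. The protocadherin Pcdh7 rose by log2 0.60 ± 0.21 (adjusted p = 0.0216) in Rb null cells, where its arrays overlapped, and by 1.61 ± 0.21 (adjusted p = 1.4e-05) in wildtype cells. Ablim1, an actin-binding LIM protein, changed by 0.87 ± 0.13 (adjusted p = 4.17e-05) in Rb null cells, where it was called, and by 0.29 ± 0.13 (adjusted p = 0.0781) in wildtype cells.

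A span counts the whole annotated gene, and some long genes also have start sites near their end. Of the 4 listed start sites of Pde4b, the farthest lies 185.7 kb from the gene end and the nearest lies 17.4 kb from it. That start is shown because it belongs to a gene over 200 kb that rose, with 300 bases in the RefSeq promoter table (GRCm38.p6) at chr4:102589593-102589892 on the plus strand, which hold none of the 3 motifs marked by capitals above.
Pde4b: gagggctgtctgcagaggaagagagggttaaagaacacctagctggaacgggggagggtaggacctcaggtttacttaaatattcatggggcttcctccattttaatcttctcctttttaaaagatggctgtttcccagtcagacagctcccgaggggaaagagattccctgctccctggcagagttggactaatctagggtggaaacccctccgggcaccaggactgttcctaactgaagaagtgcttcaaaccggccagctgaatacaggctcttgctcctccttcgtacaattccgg
Of the 245 genes over 200 kb, 31 had a listed start within 100 kb of the gene end, a division made after the data had been seen. Their median change was -1.04 in Rb null and -0.74 in wildtype cells, with 64.5% and 58.1% called lower. The 150 genes with every listed start over 100 kb from the end had medians of -1.74 in Rb null and -1.11 in wildtype cells, with 82.0% and 74.7% lower, and the 64 genes with no listed start had -1.60 in Rb null and -1.01 in wildtype cells. Which start site these cells use was not measured by the arrays. Among the listed genes that were tested, Tcf12 and Ptprg had such starts, at 51.8 and 52.1 kb from the gene end, and Tcf12 was among the least changed and Ptprg among the most changed. Of the other long genes named above that rose, Ablim1 had its nearest listed start at 86.3 kb, Pcdh7 its only one at 415 kb, and Celf4 none. Of those that fell, Fut8 had its nearest at 65.9 kb, Slit2 and Tenm3 their only ones at 325 and 449 kb, and Adam12 none. The part of start sites in these changes was not tested.

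Other probe sets of the same genes were mostly called in the same direction, as a reading of every tested probe set added after the data had been seen showed. The 34 genes had 61 tested probe sets, of which 53 were lower in Rb null and 42 in wildtype cells and 0 higher in either. These totals include the 34 probe sets used above, of which 28 were lower in Rb null and 25 in wildtype cells. Of all genes tested, at 1 probe set per gene, 20.3% were lower in Rb null and 12.7% in wildtype cells. Of 12 genes with several tested probe sets, 7 had all of them lower in both genotypes. The 4 probe sets of Lpp changed by -3.53 to -1.83 in Rb null and -3.79 to -1.92 in wildtype cells, and the 4 of Exoc4 by -3.55 to -1.35 in Rb null and -3.49 to -0.89 in wildtype cells. The 6 probe sets of Foxp1 were all lower in Rb null cells (-1.97 to -1.36) and 1 was lower in wildtype cells (-0.59 to -0.15). The 5 of Tcf4 were all lower in Rb null cells (-1.22 to -0.69) and 1 in wildtype cells (-0.65 to 0.14), and the difference between genotypes was called for 3 of the 5 (-1.18 to -0.54 over all of them). The 3 of Ghr were lower in both genotypes, but their differences between genotypes lay between -2.20 and -0.18, and 2 of the 3 were called. The 3 probe sets of Nfib disagreed, with changes of -3.24 to -0.47 in Rb null cells and differences between genotypes of -1.76 to 0.68. The 3 of Ppp3ca were lower throughout, but their differences between genotypes lay between -2.88 and -0.06, and 2 of the 3 were called lower. The 2 of Tcf12 had differences of -0.85 and -0.49, of which 1 was called lower.

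Genes of transcription-coupled repair and of RNA polymerase II elongation showed few falls. Of 31 tested factors of transcription-coupled repair and of RNA polymerase II elongation, with a median span of 29.4 kb, 1 was lower and 7 higher after cisplatin in Rb null cells, where 20.3% of all genes were lower and 16.6% higher. In wildtype cells 1 was lower and 6 higher, against 12.7% and 14.8% of all genes. Hexim1, which holds the elongation kinase P-TEFb inactive, changed by 1.77 ± 0.11 (adjusted p = 2.52e-09) in Rb null and 0.75 ± 0.11 (adjusted p = 3.19e-05) in wildtype cells, and Polr2a, the largest subunit of RNA polymerase II, by 0.84 ± 0.088 (adjusted p = 1.08e-06) in Rb null and 1.28 ± 0.088 (adjusted p = 1.69e-08) in wildtype cells. The one gene that fell in both was Aff1, a scaffold of the super elongation complex that spans 163 kb, with changes of -1.31 ± 0.16 (adjusted p = 4.61e-06) in Rb null and -1.23 ± 0.16 (adjusted p = 1.32e-05) in wildtype cells. Of 22 tested p53 targets, with a median span of 11 kb, 0 were lower and 17 higher in Rb null cells, and 0 were lower and 14 higher in wildtype cells. Among them Perp, an effector of p53-dependent apoptosis, rose by 2.76 ± 0.14 (adjusted p = 5.24e-10) in Rb null and 2.40 ± 0.14 (adjusted p = 3.56e-09) in wildtype cells, and Mdm2, which marks p53 for degradation, by 1.05 ± 0.11 (adjusted p = 1.45e-06) in Rb null and 1.18 ± 0.11 (adjusted p = 6.54e-07) in wildtype cells.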

How the data were processed

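The deposited values are signal intensities, 1 per probe set and array, made by the authors with MAS5 per the submitters' processing notes, from 6 µg of RNA per array per the labels' protocols. The version and scaling target of MAS5 are not given in the sources used here, and no detection calls were used. With 2% trimmed at each end, the array means lay at 500.1 to 500.2, so the deposited scale was kept.

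Intensities were converted to log2(signal + 10.4), with 10.4 taken at the 10th percentile of the table; this makes changes of weak genes look smaller. The table holds 22690 probe sets, of which 64 were controls and not used, 20380 had a single gene symbol, 691 several and 1555 no entry in the platform annotation. The upper 60% by mean log2 signal, 13576 probe sets, were fitted with limma 3.58.1 in R 4.3.3 (lmFit with a mean per group over all 12 arrays, then eBayes with a variance trend), and the two-sided p-values were adjusted over these probe sets by Benjamini-Hochberg. Changes are estimates ± standard error of limma, with n = 3 arrays per group, and other errors are SD. Each gene was read from the probe set with the highest mean, and from one with a suffix for cross-hybridization only where it had no other. Spans came from RefSeq genes of GRCm38.p6, with a span for 12369 of 12393 genes, and promoters from the RefSeq promoter table of that build.

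Groups and replicate numbers were taken from the sample titles. Same-numbered arrays did not deviate together, with correlations of -0.186 to 0.109, so no pairing was used. Arrays within a group correlated at 0.981 to 0.992. The number of arrays limits the precision. On simulated data (the cisplatin comparison in Rb null cells, 200 of 13576 probe sets changed, 5 runs), the fit recovered 44.1% of the probe sets changed 1.5-fold, 96.2% of those changed 2-fold and 100% of those changed 4-fold, with 3.2 false calls among 162.8 per run. A true change of 1.5-fold lies at the minimum for a call. In the data 36.9% of genes were called, and the simulated spread was that between these arrays, so the rates need not hold for the data.

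The listed genes and the other gene lists were chosen with earlier results of these data known. Signals on every array are given for the 8 listed genes with the largest called fall in each genotype and up to 6 whose response differed between genotypes, and of other genes over 200 kb the text draws on the 5 largest falls and 3 largest rises. From other lists up to 3 called genes by size were eligible; Mdm2, and the choice of Tcf4, Fto and Pde10a for mean values, came after the values were seen. Alternatives were other pseudocounts, filters, scalings, probe sets and span limits, no variance trend, only the groups compared, a replicate block and leaving out each array.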

Additional observations from a re-analysis of the deposited data

Results flagged for a closer look

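The cisplatin response differed between Rb null and wildtype cells for 8 of the 34 tested genes by the test of the difference itself (limma, Rb null change minus wildtype change), a share of 23.5% beside 23.7% of all genes tested. The difference was log2 -1.76 for Nfib, -1.75 for Ext1, -1.40 for Foxp1 and -1.24 for Ghr. Over their tested probe sets it was -2.20 to -0.18 for Ghr, -1.76 to 0.68 for Nfib and -1.18 to -0.54 for Tcf4. By the probe set with the highest mean it was -0.97 for Dock1, -0.93 for Tcf4, -0.92 for Fto and 1.02 for Elmo1. Ppp3ca and Tcf12 were called lower only by other probe sets. Ext1, Foxp1, Ghr, Tcf4, Fto and Nfib were also lower in Rb null than in wildtype cells after cisplatin, a comparison that does not use the untreated wildtype arrays. Dock1 was at 57.2 ± 5.29 in cisplatin Rb null and 76.2 ± 25.2 in cisplatin wildtype cells (SD, n = 3 each), and the untreated groups differed, at 1016 ± 32.3 in Rb null and 645 ± 64.1 in wildtype cells. In that untreated comparison genotype and culture cannot be told apart.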

How the results depend on the processing

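The count of very long genes called lower was 28 in Rb null and 25 in wildtype cells and stayed within 1.5 times under every alternative but 2. The first was the upper 40% of probe sets, where 10 and 7 were called because fewer of the genes were tested. The other, added after the data had been seen, kept the 22 genes that passed the signal minimum in a cisplatin group, of which 16 and 13 were lower; of these genes 1 and not 2 was higher in untreated Rb null than in untreated wildtype cells. With the replicate block the counts were 28 and 25, and the block moved no count of the listed genes in any contrast. Leaving out 1 array at a time gave 28 to 29 lower and 0 to 1 higher in Rb null cells, the 1 higher without cisplatin Rb null array c, and 23 to 26 lower in wildtype cells. For the difference of responses it gave 7 to 10 lower and 0 to 2 higher. The 1 gene higher by that contrast, Elmo1, became 0 with no filter and in the upper 40%, and the count was 2 with quantile normalization and with median centring, which shifts the median of all genes by 0.15 in Rb null, 0.04 in wildtype and 0.10 in the difference. Elmo1 was not called without cisplatin Rb null array a or b, cisplatin wildtype array a or c, untreated Rb null array 2 or 3, or untreated wildtype array 1 or 3, with differences of 0.83 to 1.01. After cisplatin, leaving out arrays gave 7 to 9 genes lower and 0 to 1 higher in Rb null than in wildtype cells. Without treatment it gave 1 to 2 lower and 1 to 2 higher; the lower count was 2 with no filter, quantile normalization, only the groups compared or the weakest probe set of each gene, and in the upper 40% both counts were 0. For Nfib the weakest probe set turned the difference to 0.68, and its fall in Rb null cells, -0.47, was then not called; the cause was not tested.

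The median change over 200 kb, -1.57 in Rb null and -1.05 in wildtype cells, was -0.99 and -0.58 over 100 kb and -1.63 and -1.31 over 300 kb. It was -1.42 and -1.0 with median centring, -0.78 and -0.65 with no filter, -2.08 and -1.21 in the upper 40%, -1.67 and -1.09 with a pseudocount of 1, and -1.33 and -0.93 with a pseudocount of 50. It was -1.50 in Rb null cells with quantile normalization, and leaving out arrays gave -1.62 to -1.57 and -1.08 to -0.999. Of 810 values of named genes under alternatives, 799 kept direction and call. Signals near control probe sets limit how deep a fall can be read.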
